A study of Rattus norvegicus with 12 samples.

Results

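The miR-26 family on these arrays was made up of 2 mature microRNAs, rno-miR-26a-5p and rno-miR-26b-5p. They were taken by exact name from the 758 rat microRNAs that the arrays hold, whatever their values, and both were measured on all 12 arrays. Tissue came from the left ventricle of male Wistar rats, with 1 single-colour (Cy3) array for each rat and 4 rats in each group. The methods place the tissue near the infarction area, so the levels in ligated rats are not those of the whole ventricle. The Sham group was operated on without tying the coronary artery and received saline. In the MI group, which the sample labels call chronic heart failure, a ligature was tied around the left anterior descending coronary artery and saline was given. The YQFM group had the same ligation and received intraperitoneal Yiqifumai Injection, a Chinese herbal preparation used in heart failure, at 5 mg/kg each day. Injections were given for 28 days in every group. All YQFM arrays here are from ligated rats. The ventricle is a mixture of cells, in which fewer cells of a type and less RNA per cell cannot be told apart.

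MicroRNAs are short RNAs that guide Argonaute proteins to messenger RNAs, mainly through the seed, which is bases 2 to 8 counted from the 5′ end, and lower the output of those messengers. The miR-26 family is widely expressed and abundant in many tissues, including the heart. It is best known for restraining cell growth and division, with EZH2 among its studied targets, and in blood vessels for limiting angiogenesis through SMAD1. Each member is carried within a gene for a small C-terminal domain phosphatase.

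The mature sequences of the members are shown first because every measurement below rests on telling them apart. They are RefSeq sequences, written 5′ to 3′ with the seed in capitals.
rno-miR-26a-5p: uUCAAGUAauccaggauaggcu
rno-miR-26b-5p: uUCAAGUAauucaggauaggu
On the GRCr8 assembly, rno-miR-26a-5p lies on the plus strand at chr8:127633063-127633084, inside the hairpin gene Mir26a and within the bounds of the protein-coding gene Ctdspl. The position of rno-miR-26b-5p is chr9:83425723-83425743, also on the plus strand, inside Mir26b and within the bounds of Ctdsp1. The seed UCAAGUA was found in 2 of the 693 rat mature microRNAs in RefSeq, and these were the members themselves. Of the 758 microRNAs on the array, 685 were matched to that set by name, so the search covered most of the array but not all of it.

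The members are identical at 19 of their 21 aligned positions and differ only outside the seed. With positions counted from 1 at the 5′ end and rno-miR-26a-5p as the reference, the substitutions are C11U and C21U. The longer member also has 1 more base at its 3′ end, 22 in place of 21. The lines below repeat the sequences with only the differing bases in capitals.
rno-miR-26a-5p: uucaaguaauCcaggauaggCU
rno-miR-26b-5p: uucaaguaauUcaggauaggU

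Each member was read by 2 probes on 8 spots each, and the probes are given in lower case because they decide how far the members can be separated.
rno-miR-26a-5p, first probe: agcctatcctggatt
rno-miR-26a-5p, second probe: agcctatcctggatta
rno-miR-26b-5p, first probe: acctatcctgaattacttga
rno-miR-26b-5p, second probe: acctatcctgaattacttgaa
The rno-miR-26a-5p probes pair with bases 8 to 22 and 7 to 22 of their target. To rno-miR-26b-5p they have 2 mismatches, and 1 more probe base lies past its end. The rno-miR-26b-5p probes pair with bases 2 to 21 and 1 to 21 and have 2 mismatches to rno-miR-26a-5p. Cross-hybridisation between the members was not tested. Agreement between spots was read only after outlier spots were set aside, which itself favours agreement, and 5 to 8 spots of a probe were kept per array. The median coefficient of variation was 1.70% and 1.53% for the rno-miR-26a-5p probes and 2.43% and 2.54% for the rno-miR-26b-5p probes. Its highest value on any array was 9.45%, for the first rno-miR-26b-5p probe.

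The arrays were not all of the same quality. Each held 12128 spots, of which 902 to 1052 were set aside as outliers and 24.4% to 31.6% lay well above background. No spot was saturated, and 211 to 268 microRNAs were detected per array. The arrays sat on 3 slides in an unbalanced way: slide 1 held MI replicates 1 to 3, slide 2 held MI replicate 4 and YQFM replicate 1, and slide 3 held the 4 Sham arrays and YQFM replicates 2 to 4. MI and Sham arrays never shared a slide, and so their comparison and the slide cannot be told apart. MI replicate 4 carries a Sham source name and Sham replicate 4 a YQFM source name. Their titles and group entries were followed.

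rno-miR-26a-5p was well above background on 12 of 12 arrays. Its scaled signal, the fluorescence after the arrays were brought to a common 75th percentile, was 885, 697, 793 and 771 in Sham replicates 1 to 4. In the MI group it was 794, 752, 551 and 838, and in the YQFM group 1155, 738, 824 and 731. YQFM replicate 1 was the highest array and MI replicate 3 the lowest, while the other arrays of all groups lay in 1 shared range. On the log2 scale the Sham level was 9.61 ± 0.14, the MI level 9.50 ± 0.27 and the YQFM level 9.72 ± 0.31 (SD, 4 rats each).

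rno-miR-26b-5p was likewise well above background on 12 of 12 arrays. The Sham replicates had scaled signals of 208.1, 156, 186 and 192. The MI replicates had 220.7, 190, 150 and 205, and the YQFM replicates 242, 174, 198 and 166. The same arrays were at the ends as for rno-miR-26a-5p, with YQFM replicate 1 highest and MI replicate 3 lowest, and the groups overlapped. Its log2 level was 7.53 ± 0.18 for Sham, 7.57 ± 0.24 for MI and 7.59 ± 0.24 for YQFM rats (SD, 4 rats each). The signals of the members come from different probes, so a higher signal for rno-miR-26a-5p does not say that it was the more abundant molecule.

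**Figure D1:**
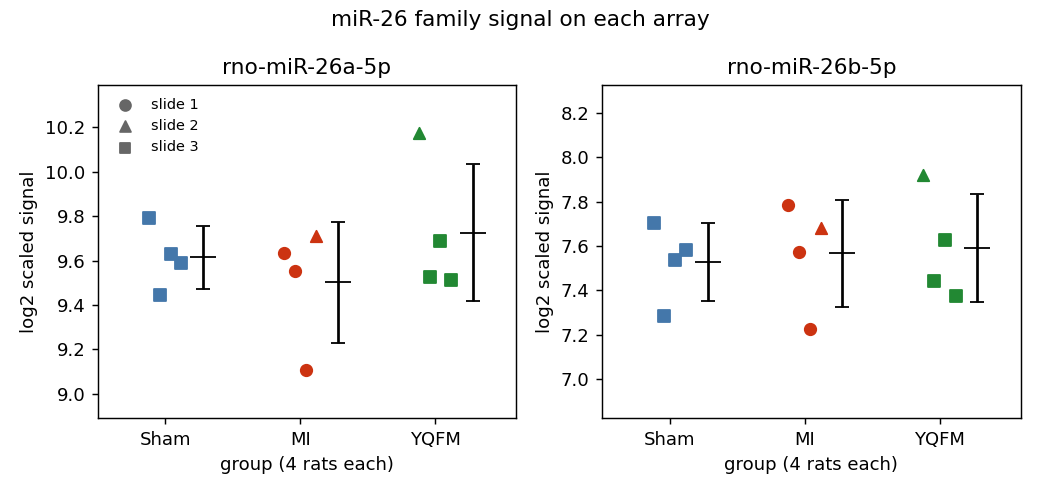
Scaled signal (log2, y axis) of rno-miR-26a-5p (left) and rno-miR-26b-5p (right) in the Sham, MI and YQFM groups (x axis). Each point is the array of 1 rat, shaped by slide, and the bar beside it gives the group mean and SD (n = 4). The groups overlap for both members, with YQFM replicate 1 on top at 1155 and 242 and MI replicate 3 lowest at 551 and 150 on the linear scale.

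The first comparison asked whether the failing ventricle differed from the sham-operated one. Neither member passed the test, in a comparison where 7.22% of the 263 tested microRNAs did (limma, Benjamini-Hochberg adjusted p under 0.05) and 77 had an unadjusted p under 0.05. For rno-miR-26a-5p the MI to Sham log2 ratio was -0.11 (SE 0.171, limma adjusted p = 0.718, exact permutation p = 0.600, two-sided). For rno-miR-26b-5p it was 0.04 (SE 0.154, limma adjusted p = 0.914, exact permutation p = 0.771). The 95% intervals show what these arrays leave room for. Expressed as a fold, the MI level of rno-miR-26a-5p was between 0.712 and 1.20 times that of Sham, and that of rno-miR-26b-5p between 0.813 and 1.30 times. The signs are not stable: rno-miR-26a-5p turned to 0.02 without MI replicate 3, and rno-miR-26b-5p to -0.04 without Sham replicate 2 and to -0.03 without MI replicate 1. With the slide as a fixed block the ratios were -0.50 and -0.28. The MI arrays of slide 1 add nothing to these ratios, which rest on 1 MI array, MI replicate 4, whose source name is Sham. That array is joined to Sham only through the YQFM arrays.

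The second comparison asked whether YQFM treatment changed the ligated ventricle. Here 0% of the 263 microRNAs passed the limma threshold, while 50 had an unadjusted p under 0.05, so the absence of a call does not set the members apart. The log2 ratio of YQFM to MI was 0.22 for rno-miR-26a-5p (SE 0.171, limma adjusted p = 0.542, exact permutation p = 0.457) and 0.03 for rno-miR-26b-5p (SE 0.154, limma adjusted p = 0.960, exact permutation p = 0.886). The intervals ran from 0.899 to 1.52 times the MI level for rno-miR-26a-5p and from 0.805 to 1.29 times for rno-miR-26b-5p. Much of the rno-miR-26a-5p ratio came from the arrays at the ends. It was 0.07 without YQFM replicate 1 and 0.09 without MI replicate 3, and the rno-miR-26b-5p ratio became -0.08 and -0.09 without the same arrays. On slide 2, which held 1 array of each group, YQFM lay above MI by 0.46 for rno-miR-26a-5p and by 0.24 for rno-miR-26b-5p, with no replicate and no test. The MI array of that pair, MI replicate 4, is the one with a Sham source name.

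The YQFM group was also set against Sham, where 0% of the 263 microRNAs passed the limma threshold and 15 had an unadjusted p under 0.05. The log2 ratio was 0.11 for rno-miR-26a-5p (SE 0.171, limma adjusted p = 0.852, exact permutation p = 0.686) and 0.07 for rno-miR-26b-5p (SE 0.154, limma adjusted p = 0.903, exact permutation p = 0.686). On slide 3, which held all Sham arrays and YQFM replicates 2 to 4, both ratios were -0.04. The turn of sign came with YQFM replicate 1, the only YQFM array on another slide. The rno-miR-26b-5p ratio was also -0.01 without Sham replicate 2. The 3 comparisons share groups and are not independent. In all, 0 of the 6 member comparisons passed the limma threshold, and 0 of them had an unadjusted p under 0.05 by limma or by the methods' t-test. Under 2 other scalings rno-miR-26a-5p did have an unadjusted limma p under 0.05, and it did not pass after adjustment. With quantile normalization its ratio of MI to Sham was -0.23 (limma adjusted p = 0.124) and its ratio of YQFM to MI 0.25 (limma adjusted p = 0.172). With the 75th percentile taken over all microRNAs its ratio of YQFM to MI was 0.25 (limma adjusted p = 0.242).

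**Figure D2:**
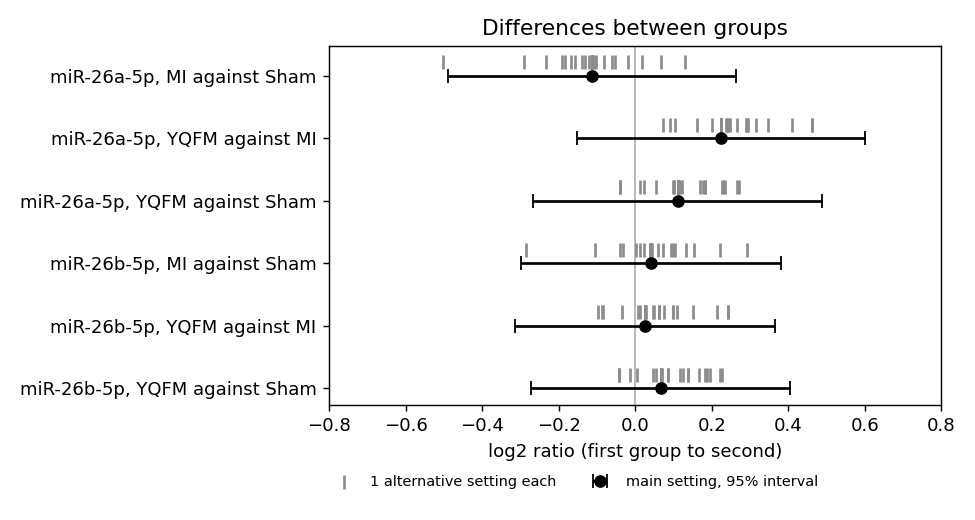
Log2 ratios between groups (x axis) for each member and comparison (y axis). Black points and bars give the limma estimate with its 95% interval over 12 arrays, and each grey tick is the same ratio under 1 other processing setting. All 6 intervals span 0, and only the ratio of YQFM to MI for rno-miR-26a-5p stayed on 1 side of 0 under every setting shown, from 0.07 to 0.46. Many of these settings, such as leaving out a Sham array, cannot change that ratio.

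The spread between arrays within a group was ordinary for this data set. The MI arrays and the YQFM arrays were each divided between slides, so for them this spread mixes slide with rat. The within-group SD on the log2 scale was 0.251 for rno-miR-26a-5p and 0.223 for rno-miR-26b-5p, beside a median of 0.242 over the 201 microRNAs detected on every array. The probes of a member gave the same picture. MI over Sham on the log2 scale was -0.10 and -0.12 by the rno-miR-26a-5p probes, and 0.04 by each rno-miR-26b-5p probe. For YQFM to MI the values were 0.20 and 0.24 for the former and 0.01 and 0.04 for the latter.

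The members rose and fell together from array to array. Over the 12 arrays their log2 scaled signals had a Pearson correlation of 0.889 (permutation p = 3e-05) and a Spearman correlation of 0.937 (permutation p = 3e-05), the only correlation between members that was tested. Without YQFM replicate 1 and MI replicate 3, the arrays farthest from the median of rno-miR-26a-5p, Pearson's r was 0.830 (n = 10, permutation p = 0.00295). Among the 7 arrays of slide 3 it was 0.954 (exact permutation p = 0.00159). The value leaned on the scaling between arrays. It was 0.826 when arrays were scaled by the mean log2 signal of the other microRNAs, where Spearman's rho was 0.594, and 0.404 (permutation p = 0.193) after quantile normalization. Both members share each array, its RNA and its scaling, and the part of these in the correlation was not tested.

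**Figure D3:**
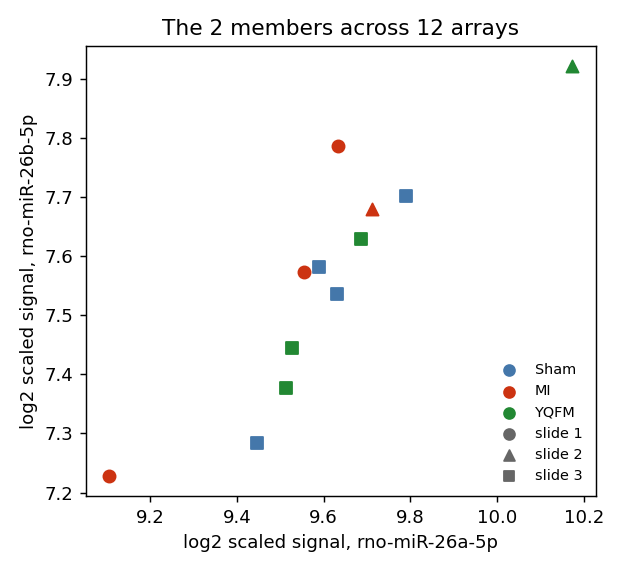
Log2 scaled signal of rno-miR-26b-5p (y axis) against rno-miR-26a-5p (x axis) on the 12 arrays, coloured by group and shaped by slide. The points follow a rising line (Pearson's r 0.889), with MI replicate 3 at the lower left end and YQFM replicate 1 at the upper right.

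Whether the members shifted unequally was asked with the difference of their log2 signals within an array, rno-miR-26a-5p minus rno-miR-26b-5p. A linear scaling of the array cancels in this value, and only its change between groups can be read. The difference was 2.09, 2.16, 2.10 and 2.01 in Sham replicates 1 to 4. It was 1.85, 1.98, 1.88 and 2.03 in the MI group, and 2.25, 2.08, 2.06 and 2.14 in the YQFM group. Every YQFM array lay above every MI array, while MI replicate 4 lay just above Sham replicate 4 and the Sham and YQFM arrays were interleaved.

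The mean difference of the MI arrays was 1.94 ± 0.087, against 2.09 ± 0.063 for the Sham arrays and 2.13 ± 0.087 for the YQFM arrays (SD, 4 rats each). The change from MI to YQFM was 0.20, a relative shift of 1.15-fold, with an exact permutation p of 0.0286. That is the smallest p that 4 arrays against 4 can give. Adjusted over the 3 comparisons it was 0.0857, the lowest value possible for a shift that alone reaches that p. The change from Sham to MI was -0.15 (exact permutation p = 0.0571, adjusted p = 0.0857), and YQFM and Sham differed by 0.04 (exact permutation p = 0.486). None of the 3 shifts therefore passed, although the arrays of YQFM and MI did not overlap. How often other pairs of microRNAs separate these groups was not counted, so it cannot be said whether such a separation is unusual here.

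The same shift was read probe by probe. The probes of a member are nested forms of 1 sequence, so the readings are not independent. In each of the 4 pairings of a rno-miR-26a-5p probe with a rno-miR-26b-5p probe, the change from MI to YQFM lay between 0.164 and 0.224, with an exact permutation p of 0.0286. After quantile normalization, which is not linear, the change from MI to YQFM was 0.18 with an exact permutation p of 0.114, and that from Sham to MI was -0.34 with an exact permutation p of 0.0286 (adjusted p = 0.0857).

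The slides limit the reading of this shift. The lowest 3 values were those of the 3 arrays of slide 1, all MI, and the MI array on slide 2, whose source name is Sham, had 2.03, within the range of the slide 3 arrays. On slide 2 the YQFM array had 2.25 against 2.03 for the MI array, and on slide 3 YQFM and Sham differed by 0.0041 (exact permutation p = 0.943). Slide and group cannot be told apart for the 3 MI arrays of slide 1.

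**Figure D4:**
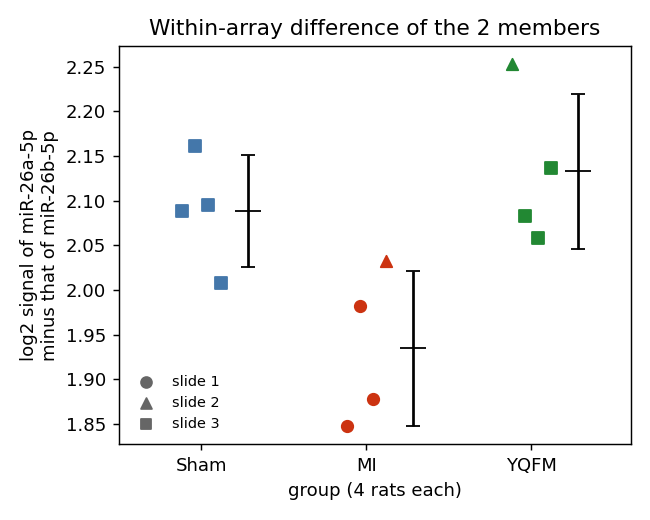
Log2 signal of rno-miR-26a-5p minus that of rno-miR-26b-5p on the same array (y axis) in the 3 groups (x axis). Points are rats, shaped by slide, and bars give the mean and SD (n = 4). The MI arrays run from 1.85 to 2.03 and the YQFM arrays from 2.06 to 2.25, and the 3 circles of slide 1 are the lowest points.

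The opposite arms of the hairpins, rno-miR-26a-3p and rno-miR-26b-3p, were also on the array. Both were detected on 0 of 12 arrays, so no level or ratio is given for them. Every level given above is that of a 5′ arm.

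Among the 200 other microRNAs detected on every array, those that varied most like rno-miR-26a-5p over the 12 arrays were miR-23a-3p (Pearson's r 0.948), miR-27a-3p (0.909) and rno-miR-26b-5p itself (0.889). For rno-miR-26b-5p they were let-7f-5p (0.958), miR-23a-3p (0.943) and miR-27b-3p (0.932), while rno-miR-26a-5p came in place 10 of 200, so that other microRNAs followed each member more closely than its relative did. miR-23a-3p, a microRNA studied in cardiac hypertrophy, was near the top for both members. These values are a description over arrays that share their scaling, and with the mean log2 scaling the miR-23a-3p values were 0.923 and 0.933.

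Beside the family stood a list of microRNAs known for roles in cardiac growth, fibrosis and angiogenesis. Of 24 listed, 23 were found on the array by name and 20 were tested. None passed the limma threshold in any of the 3 comparisons, and at an unadjusted p under 0.05 there was 1, miR-92a-3p for MI against Sham, where 77 of all 263 tested reached that level and 19 passed the threshold. For MI against Sham, 9 log2 ratios were above 0 and 11 below, with a median of -0.0033 beside -0.045 over all 263 tested. The highest ratios were those of miR-21-5p, which is abundant in activated cardiac fibroblasts, at 0.79 (SE 0.379, limma adjusted p = 0.194), and miR-199a-5p, also of fibroblasts, at 0.73 (SE 0.444, limma adjusted p = 0.309). The lowest were miR-30c-5p, known for acting on connective tissue growth factor, at -0.33 (SE 0.159, limma adjusted p = 0.192), and miR-92a-3p, a regulator of vessel growth, at -0.24 (SE 0.105, limma adjusted p = 0.153). For YQFM against MI the list split into 10 above and 10 below 0, with a median of -0.0093 beside -0.0077 over all tested.

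Markers of the cell types in the ventricle were read on the same arrays. The muscle microRNAs miR-1-3p, miR-133a-3p, miR-133b-3p and miR-499-5p were detected on every array, whereas miR-208b-3p of the slow myosin gene was detected on none, and neither were the leukocyte markers miR-142-3p and miR-142-5p or the erythroid miR-144-3p. Of the markers, 4 of 6 for cardiomyocytes, 3 of 3 for fibroblasts, 3 of 5 for leukocytes, 2 of 3 for erythrocytes and 2 of 2 for endothelial cells were tested. None of these passed the limma threshold in any comparison, and at an unadjusted p under 0.05 there was 1 (the erythroid miR-486) when either ligated group was set against Sham. Among all 263 tested, 7.22% passed in the MI to Sham comparison, where 77 reached the unadjusted level. In both comparisons that involve YQFM, 0% passed. With so few markers, the absence of calls therefore says little about the mixture of cells. Some muscle microRNAs outside the marker list passed for MI against Sham and others did not. They were named after their values were seen. Those that passed are miR-208a-5p at -1.04 (SE 0.151, limma adjusted p = 0.00678) and miR-133c at -0.61 (SE 0.106, limma adjusted p = 0.0105). The MI mean of miR-208a-5p was 3.01 on the log2 scale, near the floor of 2.38. Lower without passing were miR-1-5p at -0.71 (limma adjusted p = 0.052), miR-1b at -0.28 (0.284) and miR-133a-5p at -0.19 (0.37). miR-206-3p went the other way, at 0.39 (limma adjusted p = 0.147), and did not pass. The summed signal of the 6 cardiomyocyte markers was 10051 to 13406 on Sham arrays, 9414 to 11788 on MI arrays and 9208 to 11483 on YQFM arrays. In the same order, the ranges were 211 to 313, 268 to 525 and 262 to 893 for the 3 fibroblast markers, and for the 2 endothelial markers, both arms of miR-126a, 563 to 733, 707 to 941 and 575 to 712. The endothelial sum was thus higher in MI than in the other groups apart from a small overlap. It was nearly all miR-126a-3p, whose MI mean was 9.54 on the log2 scale against 3.94 for miR-126a-5p. For MI to Sham miR-126a-3p was at 0.23 (limma adjusted p = 0.274), and miR-126a-5p went the other way, at -0.11 (limma adjusted p = 0.711). The markers therefore do not show a shared endothelial rise. MI was also the group with the lower within-array difference of the members, and the part of the endothelial sum in that difference was not tested. The 5 leukocyte markers summed to 279 to 319, 267 to 339 and 265 to 319, and the 3 erythrocyte markers to 198 to 251, 162 to 214.02 and 165 to 198.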

How the data were processed

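Total RNA of rat left ventricle was labelled with Cy3 and hybridised to Agilent microRNA arrays. Per the labels, the authors scanned the slides and extracted spot intensity values with Agilent Feature Extraction 10.7.1.1. The deposited intensity (processed signal) of non-outlier spots was averaged by probe and then by microRNA. Each array was divided by its 75th percentile over the 201 microRNAs detected on all arrays, multiplied by the mean of these percentiles, floored at 5.20 and put on the log2 scale. For the authors' processed table GeneSpring is named, and no normalization is given in the sources used here. It equalled the scanner's total gene signal, floored at 0.1, within 0.2% in 92.6% of its 9096 values. Of all its values 62.4% are at the 0.1 minimum, where a match shows only that both were at the floor. It is linear, is not scaled between arrays, and each array's median is 0.1. It served as an alternative.

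The 263 microRNAs detected on at least 2 arrays of a group were fitted over 12 arrays with limma 3.58.1 in R 4.3.3 (two-sided, Benjamini-Hochberg, threshold 0.05). The fit was also tried on simulated data that held no slide effect, so that trial says nothing of the slides. Single values had two-sided exact permutation tests, computed in Python 3.11.15, and correlations 100000 resamples, or all orders for 7 arrays. Named microRNAs were the members, their opposite arms, the 3 most correlated with each member, and the 2 highest and 2 lowest ratios of MI to Sham of the growth, fibrosis and angiogenesis list. The members and lists were chosen with earlier results of these data known. Alternatives covered the background correction, signal, scaling, floor, detection filter, left-out arrays, replicate and slide blocks, and the methods' t-test. Samples were grouped by title and group entry. Each array is 1 rat, and their number limits the precision. Sequences came from RefSeq (GRCr8) and the probe column of the scanner files.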

Additional observations from a re-analysis of the deposited data

How the results depend on the processing

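Over the alternatives, 0 of 184 log2 ratios of the members and 0 of 70 shifts of their within-array difference were called, with lowest adjusted p-values of 0.124 (limma) and 0.0857 (exact permutation). The latter test can hardly pass, since the smallest exact p of 0.0286 becomes 0.0857 where 1 shift alone reaches it, so its count says nothing of stability. The YQFM to MI ratio of rno-miR-26a-5p was above 0 in all 31 alternatives (0.074 to 0.29 with 1 array left out each time). Many of them cannot change this ratio, such as the floor, the detection filter and each left-out Sham array. The fixed slide block and the slide 2 pair give the same value, 0.46, from 1 array of each group. The constant sign is therefore weak evidence of stability. The other ratios changed sign. For MI to Sham, rno-miR-26a-5p was 0.068 by the total gene signal, 0.13 by the brightest probe and -0.18 to 0.019 with 1 array left out, positive without MI replicate 3. rno-miR-26b-5p was -0.28 and -0.10 with the slide as a fixed and a random block, and -0.040 to 0.15 with 1 array left out, negative without Sham replicate 2 or MI replicate 1. For YQFM to MI, rno-miR-26b-5p was -0.035 by the total gene signal, -0.098 by the brightest probe and -0.087 to 0.099 with 1 array left out, negative without MI replicate 3 or YQFM replicate 1. For YQFM to Sham, the values were -0.039 and -0.043 with the slide as a fixed block, and the same on slide 3 alone. With 1 array left out they ran from -0.039 to 0.18 and from -0.043 to 0.14, negative without YQFM replicate 1, and for rno-miR-26b-5p also without Sham replicate 2. Quantile normalization took the within-array shift from Sham to YQFM to -0.15 and the correlation of the members to 0.404. The causes were not tested. The replicate block left the ratios at -0.11, 0.22 and 0.11 for rno-miR-26a-5p and 0.04, 0.03 and 0.07 for rno-miR-26b-5p, with no call, and 6 of 12 same-numbered pairs correlated over 0.1, so no pairing is established. Scaling moved the median of all ratios by up to 0.144.

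Over all microRNAs, the 19 calls for MI against Sham became 0 with normexp, the total gene signal, the authors' values, no scaling or either slide block, 2 with quantile normalization, 6 by the methods' t-test, 10 with the replicate block, 62 without MI replicate 4, 58 without both arrays of conflicting labels, 29 without YQFM replicate 1 and 4 to 12 without Sham replicate 1, 2 or 4 or MI replicate 1, 2 or 3. The 0 calls for YQFM against MI became 28 without MI replicate 4 and 23 without YQFM replicate 1. Probe pairs, the slide 3 difference, removed group means, the mean log2 scaling and the quantile setting of the difference were chosen after seeing the data.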
